A study of Mus musculus with 3 samples.

Results

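The cytosolic ribosomal protein genes encode the proteins of the ribosomes that translate messenger RNA in the cytoplasm. They were taken as all genes named in the platform's gene table by 1 symbol that starts with Rpl or Rps and goes on with a number and at most 1 letter a, x, l or y, together with Rplp0, Rplp1, Rplp2 and Rpsa, leaving out the S6 kinase genes. Of the 8251 genes with a symbol of their own on the array, 33 met this rule, 16 of the large and 17 of the small subunit, with 47 probe sets between them. Each gene was read on the probe set with the brightest mean over the 3 arrays. The signals come from lung RNA on 1 array of a B16-bearing lung (B16 is a mouse melanoma line), 1 of an LLC-bearing lung (LLC stands for Lewis lung carcinoma, a transplantable mouse tumour) and 1 of a normal lung, the control. The tumour cells were injected under the skin of the back, and the lungs model the time before tumour cells arrive there. The sources used here do not give mouse strain, age, time after injection or the number of animals per sample. Where 3 signals follow a gene's name, their order is B16-bearing, LLC-bearing, control. With 1 array per group there was no replicate, so no error or test could be given, and each difference describes these arrays and not the conditions.

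A ribosome joins a small subunit, which reads the messenger RNA, to a large subunit, which forms the peptide bonds. Cells make the proteins of both subunits in matched amounts, and their messengers are among the most abundant in any tissue. Many of these messengers begin with a C followed by a run of pyrimidines, the terminal oligopyrimidine tract, through which the growth-regulating kinase mTOR controls their translation. An array reads the amount of messenger and not its translation. In a whole lung, fewer cells of a type and less RNA per cell cannot be told apart.

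The annotated starts of these genes were looked up in RefSeq promoter sequences (GRCm38.p6), which held 26 of the 33 genes. The 60 bases shown run from 40 before to 20 after the annotated start, and capitals mark the longest run of C or T, where it has at least 8 letters and overlaps the 10 bases on either side of that start. The first 5 genes shown carry such a run at or next to the annotated start shown, and the last 3 do not. In Rpl19 the run ends just before that start, so it lies outside the messenger as annotated. Annotated starts were not checked against the true starts of the messengers, so a miss does not show that a messenger lacks a tract. Rpl19, for example, had a longest run of 5 at another annotated start. Genes with and without such a run were among the 5 highest or lowest members of a comparison. Rps27 and Rpl19 had one, and Rpl37a, Rpl41 and Rpsa did not.
Rpl7a: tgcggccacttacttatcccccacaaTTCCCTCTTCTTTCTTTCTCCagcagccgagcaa
Rps10: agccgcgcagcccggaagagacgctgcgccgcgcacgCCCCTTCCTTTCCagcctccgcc
Rps18: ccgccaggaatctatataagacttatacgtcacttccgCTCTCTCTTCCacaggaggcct
Rpl19: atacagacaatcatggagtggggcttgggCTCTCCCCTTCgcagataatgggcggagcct
Rps27: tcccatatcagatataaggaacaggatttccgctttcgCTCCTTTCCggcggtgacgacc
Rpl37a: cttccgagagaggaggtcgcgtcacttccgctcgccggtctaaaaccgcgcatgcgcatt
Rpl41: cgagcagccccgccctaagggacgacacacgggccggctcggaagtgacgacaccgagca
Rpsa: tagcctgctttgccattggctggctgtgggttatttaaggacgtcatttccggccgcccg

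Rpl7a lies at chr2:26910767-26910826 on the plus strand, Rps10 at chr17:27635225-27635284 on the minus strand and Rps18 at chr17:33955646-33955705 on the minus strand. Rpl19 lies at chr11:98026884-98026943 on the plus strand, at one of its annotated starts, and Rps27 at chr3:90213629-90213688 on the minus strand. Rpl37a lies at chr1:72711220-72711279 on the plus strand, Rpl41 at chr10:128549149-128549208 on the minus strand and Rpsa at chr9:120127726-120127785 on the plus strand. A pyrimidine run of this kind was found at or near an annotated start in 11 of the 26 genes (42.3%). By subunit these were 6 of 13 in the large and 5 of 13 in the small one. Of the 6576 array genes with a promoter in the table, 17.5% had such a run. The search also counts runs that end before the start, as in Rpl19 and Rps27l. The same search on the opposite strand found 2 of the 26 (7.69%), against 17.2% of array genes. CTTCCG, the core of sites for ETS transcription factors, lay on either strand of the 300 bases in 18 of 26 (69.2%), against 29.7%. GCCATCTT, the core of the YY1 site, was found in 4 of 26 (15.4%), against 4.61%, while GGGCGG, the core of the Sp1 site, was found in 15 of 26 (57.7%), against 63.0%. TATAAA, the core of the TATA box, was found in 4 of 26 (15.4%), against 12.2%. The first 5 letters of CTTCCG can lie inside a pyrimidine tract, so these searches overlap. A match describes the letters of the window and is no evidence of a bound factor.

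The signals of the members fell into 2 ranges. On 19 genes, 9 of the large and 10 of the small subunit, the mean signal over the 3 arrays was between 263 and 4592; these are called bright. The other 14 had mean signals of at most 118, and 9 of them, 4 of the large and 5 of the small subunit, were below the floor on all 3 arrays. The floor of 23.6, the 40th percentile of all values, was used because values under it, many of them below 0 after background subtraction, have no order. The genes below it throughout were Rpl32, Rpl35a, Rpl38 and Rpl39l of the large subunit and Rps13, Rps14, Rps15, Rps20 and Rps27l of the small one. Most of these proteins are parts of every cytosolic ribosome, so a signal under the floor describes the probe set and is not a measure of the amount of messenger. Rpl39l and Rps27l are paralogs of Rpl39 and Rps27. Signal depends on the probes as well as on the messenger, so the order of genes by signal and the split into bright and dim describe the probe sets and not which messenger was more abundant.

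**Figure D1:**
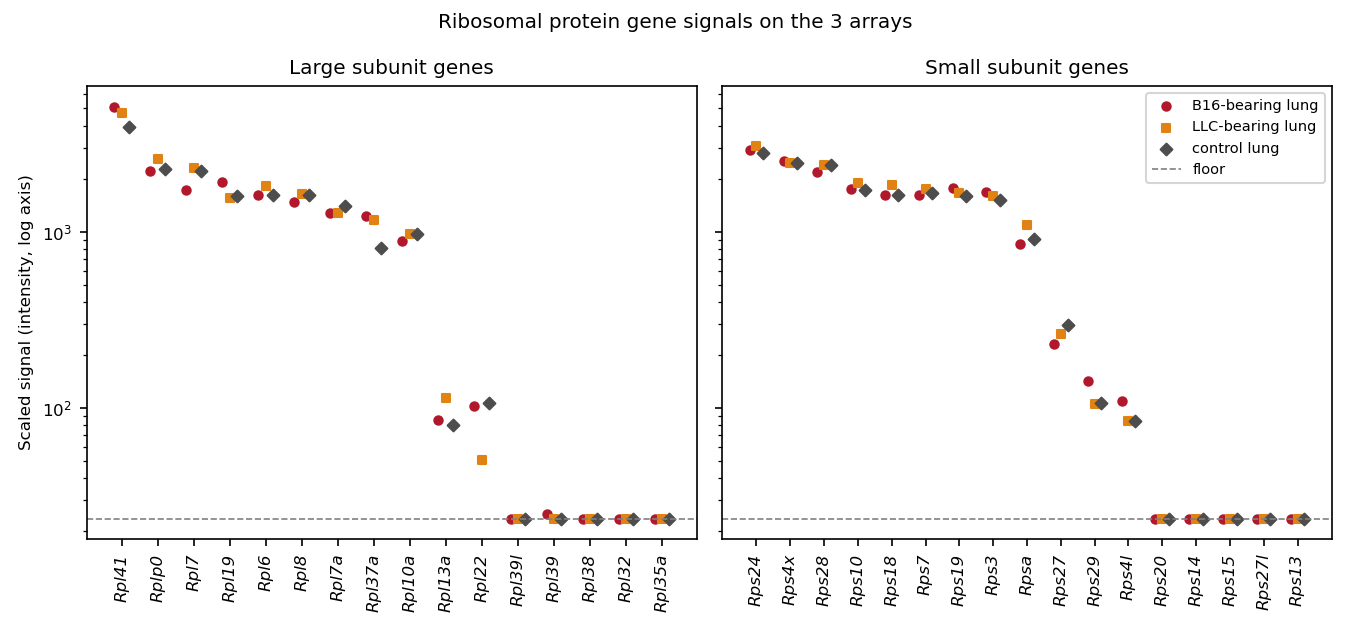
Scaled signal (intensity, log axis) of the 33 ribosomal protein genes on the 3 arrays (B16-bearing, LLC-bearing, normal lung), 1 point per gene and array, split by subunit and ordered by mean signal; values under the floor of 23.6 (dashed line) are drawn on it. The 19 bright genes lie at mean signals from 263 to 4592 with the 3 arrays close together, and 9 genes lie on the floor throughout.

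The bright genes were close to each other on the 3 arrays. The ratio of the highest to the lowest array had a median of 1.11 over these 19 genes, and 16 of them stayed under 1.3. The smallest ratio was that of Rps4x, the X-linked small-subunit protein S4, with signals of 2514, 2452 and 2438 (ratio 1.03). Only 1 of the 5 probe sets of Rps4x, the one used, was above the floor on any array. The largest was that of Rpl37a, a zinc-finger protein of the large subunit, with 1229, 1168 and 812 (ratio 1.51). The LLC-bearing lung was the highest array for 10 of the 19 genes, the B16-bearing lung for 6 and the control lung for 3. Among the 10 small-subunit genes the LLC-bearing lung was the lowest array for 0, while the B16-bearing and the control lung were each lowest for 5. Summed over the 19 bright genes, the signal in the B16-bearing lung was 1.04 times and in the LLC-bearing lung 1.08 times that of the control lung. The sum weighs genes by signal and includes Rpl41 (5122, 4736 and 3918) and Rpl37a. By count, 9 of the 19 were above control and 10 below in the B16-bearing lung, and 15 above and 4 below in the LLC-bearing lung.

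The first comparison asked how the ribosomal protein genes of the B16-bearing lung stood against the control lung. They lay on both sides of it, with a median near 0. Of the 24 members measured there (a gene counted as measured if either array of the pair exceeded the floor), 13 were above and 11 below the control lung; of all 5968 measured genes 49.3% were above it and 50.7% below. The median log2 difference of the measured members was 0.012 (range −0.37 to 0.60), against −0.0073 over all genes. At least 1.5-fold higher was 1 member, Rpl37a, and 0 were at least 1.5-fold lower, against 9.42% and 13.7% of all genes. At 2-fold the members counted 0 in either direction, against 3.23% and 4.73%. Of 139 other genes with a mean signal of at least 1000, 4 were at least 1.5-fold higher and 0 lower. Among the 19 bright members 9 were above the control lung (47.4%). Of other genes in their signal range 59.0% were above it, and of the 139 other genes at 1000 or more 73.4%.

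Rpl37a, at 1229 against 812, was 1.51-fold higher in the B16-bearing lung (log2 difference 0.60). Rpl41, which encodes one of the shortest proteins known and sits between the subunits, had signals of 5122 and 3918 and was 1.31-fold higher (0.39). Rpl19, a large-subunit protein that bridges to the small subunit, had 1916 and 1594 and was 1.20-fold higher (0.27). Each of these is a bright gene of the large subunit. The highest values were not confined to that subunit. Among dim small-subunit genes, Rps29 (0.42) ranked between Rpl37a and Rpl41, and Rps4l (0.36) between Rpl41 and Rpl19. The name of the Rpl41 probe set marks probes shared within a gene family.

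In the other direction, Rps27, a zinc-finger protein of the small subunit, had 230 against 296 and was 1.29-fold lower (−0.37). Rpl7, a large-subunit protein, had 1730 against 2206 and was 1.28-fold lower (−0.35), on a probe set whose name marks shared probes. Rps28, Rpl10a, which forms the stalk on the side where spent tRNA leaves, and Rpl8, which lies close to the peptide-bond centre, followed with log2 differences of −0.14, −0.13 and −0.12. Among the dim genes, Rps29 (143 against 107; 0.42) and Rps4l, a paralog of Rps4x (109 against 84.6; 0.36), were above the control lung. The names of the Rps28 and Rps4l probe sets also mark shared probes. Over other genes the robust SD of this difference was 0.33 at mean signals from 200 to 1000 and 0.21 at 1000 to 2000.

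The second comparison asked the same of the LLC-bearing lung. Here more members lay above the control lung than below it, by small amounts. Of 23 measured members 16 were above and 7 below it, against 49.9% and 50.1% of all 6000 measured genes. The median log2 difference was 0.060 (range −1.07 to 0.52), against −0.00047 over all genes. At least 1.5-fold higher were 0 members and 1 was lower, Rpl22, which was also the only one at least 2-fold lower; the shares over all genes were 9.32% higher and 9.07% lower at 1.5-fold, and 3.95% and 2.98% at 2-fold. Among the 19 bright genes 15 were above the control lung and 4 below it (78.9% above). Of other genes in their signal range 55.9% were above it, and of the 139 other genes at 1000 or more 70.5%.

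Rpl37a, with 1168 against 812, was again the member with the highest value, 1.44-fold above the control lung (0.52). Rpl41, with 4736 against 3918, was 1.21-fold above it (0.27). Both comparisons use the same control array, so a low control signal of either gene would appear in both. Rpsa, a small-subunit protein also known as the laminin receptor precursor, had signals of 1093 and 909 (1.20-fold, 0.27), and Rplp0, the base of the stalk that recruits elongation factors, had 2598 and 2254 (1.15-fold, 0.20). In the B16-bearing lung these had 848 and 2216, slightly below the control lung (−0.099 and −0.025).

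Rpl22, an RNA-binding large-subunit protein needed for T lymphocyte development, was dim, with signals of 103, 50.8 and 107. That is 2.10-fold lower than control (−1.07) and 2.02-fold lower than in the B16-bearing lung. Its second probe set read 65.9, 29.2 and 65.6, again with LLC-bearing 2.24-fold lower than control, so both probe sets of this gene had the LLC-bearing lung as their low array. With a floor of 100 the difference from control was −0.094. Rpl13a, which is released from ribosomes during interferon signalling in monocytes, was also dim, with 85.1, 114 and 79.7 (1.43-fold above control in the LLC-bearing lung, 0.51).

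**Figure D2:**
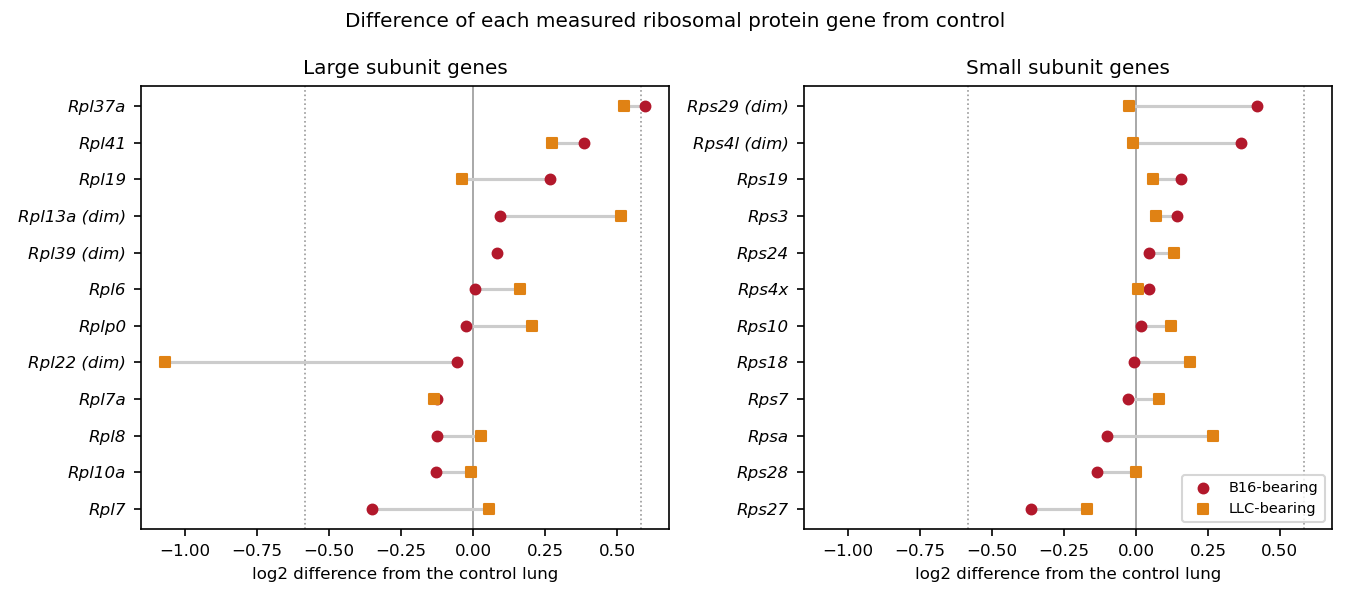
Log2 difference from the control lung of each measured ribosomal protein gene in the B16-bearing lung (circles) and LLC-bearing lung (squares), split by subunit; dotted lines mark 1.5-fold and "dim" a mean signal under 200. Rpl37a and Rpl41 lie to the right in both lungs, Rps27 to the left in both, and Rpl22 lies beyond 1.5-fold in the LLC-bearing lung alone.

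Of 23 members measured in both tumour-bearing lungs, 9 exceeded control with either tumour and 4 lay under it with either, against 32.1% and 35.7% of all genes measured in both. The 9 were Rpl13a, Rpl37a, Rpl41, Rpl6, Rps10, Rps19, Rps24, Rps3 and Rps4x, and the 4 were Rpl10a, Rpl22, Rpl7a and Rps27. On opposite sides lay 10, and 7 of these exceeded control with LLC and lay under it with B16. The control array is shared, so these counts are given as a description.

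The balance against control depended on how the arrays were scaled. The values here were scaled on the brighter part of all probe sets. Other genes in the signal range of the bright members had a median of 0.069 with B16 and 0.032 with LLC, where the 19 bright members had −0.0081 and 0.068. With factors taken from bright probe sets without the members, 8 members were above and 16 below control in the B16-bearing lung, and 9 above and 14 below in the LLC-bearing lung; this scaling moved the median of all genes to −0.12 and −0.096. After quantile normalization the splits were 9 to 15 and 8 to 15. The Rpl37a difference in the B16-bearing lung was 0.48 under the first of these settings and stayed short of 1.5-fold under both. Rpl37a and Rpl41 stayed above the control lung and Rps27 below it in both tumour-bearing lungs under each scaling.

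**Figure D3:**
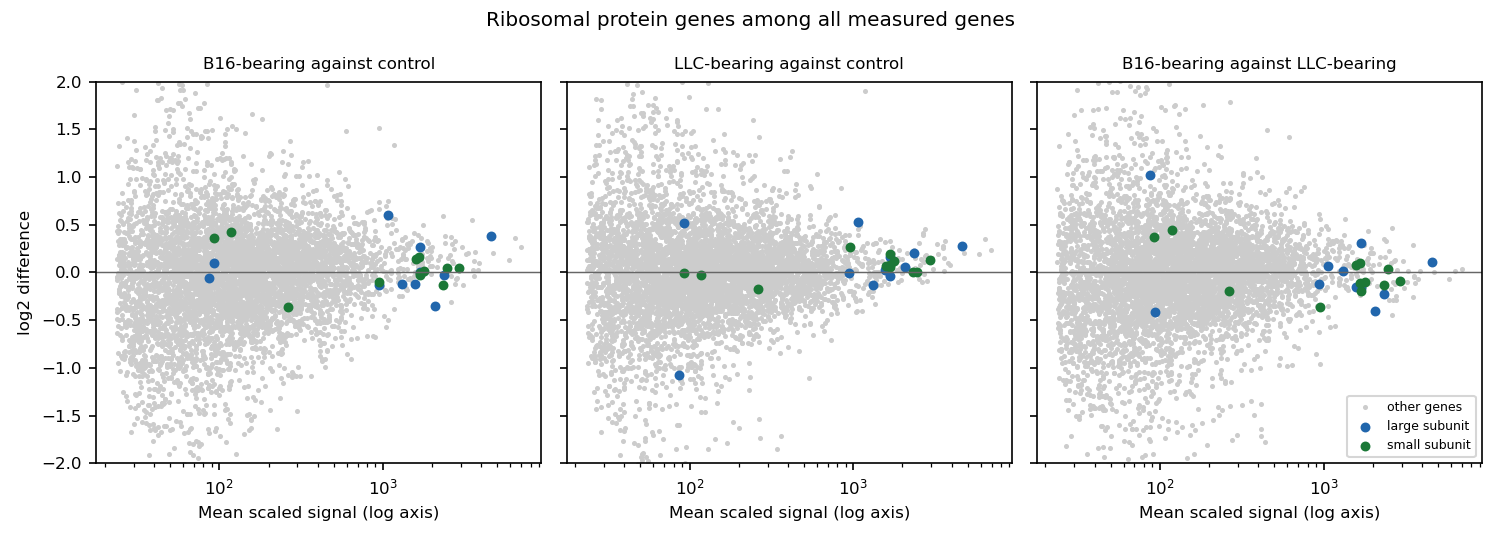
Log2 difference (vertical axis, limited to 2 in either direction) against the mean scaled signal (log axis) of all measured genes with a mean above the floor, for the 3 comparisons; members are coloured by subunit and other genes are grey. Most members lie at the bright end, where the grey cloud is narrow, and 48, 58 and 71 genes lie beyond the axis in the 3 panels.

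The third comparison set the tumour-bearing lungs against each other, and the control array entered it only through scaling, floor and choice of probe set. The members lay on both sides, in shares near those of all genes. Of 24 measured members 13 were lower and 11 higher with B16 than with LLC, against 52.3% lower and 47.7% higher of all 5984 genes. The split was 12 to 12 with the mean of all probe sets of a gene and 11 to 11 with plain probe sets only. The median was −0.096 (range −0.42 to 1.02), against −0.023 over all genes. Among the 19 bright members 12 were lower, with a median of −0.11, while 1296 other genes in the same range of signal had a median of 0.030. At least 1.5-fold lower were 0 members, against 12.8% of all genes, and 1 was higher, Rpl22, against 9.14%; it was also at least 2-fold higher, against 3.41%, and 0 were 2-fold lower, against 4.95%. The median was below 0 under every alternative run, from −0.026 to −0.12.

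The members furthest apart in this direction were Rpl13a (85.1 with B16 and 114 with LLC; −0.42), Rpl7 (1730 and 2290; −0.40), Rpsa (848 and 1093; −0.37), Rplp0 (2216 and 2598; −0.23) and Rps27 (230 and 263; −0.20). Higher in the B16-bearing lung, after Rpl22, were Rps29 (143 and 105; 0.45), Rps4l (109 and 84.0; 0.37), Rpl19 (1916 and 1552; 0.30) and Rpl41 (5122 and 4736; 0.11). Over other genes at 1000 to 2000 the robust SD of this difference was 0.21.

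The medians of the large and the small subunit lay close together in each of the 3 comparisons, with no test of their difference. Against control in the B16-bearing lung, the median was −0.0100 over 12 large-subunit and 0.032 over 12 small-subunit genes, a difference of −0.042. In the LLC-bearing lung the medians were 0.054 over 11 and 0.064 over 12 genes, a difference of −0.010. Between the tumour-bearing lungs they were −0.056 and −0.096, a difference of 0.040. Over the bright genes the differences were −0.030, −0.020 and −0.017, although 9 of 10 small-subunit and 6 of 9 large-subunit genes among them were above control in the LLC-bearing lung. The members of each subunit ranged far wider than these medians, from −0.35 to 0.60 in the large and −0.37 to 0.42 in the small subunit in the B16-bearing lung. By summed signal of the bright genes, the large subunit was 1.07 and 1.10 times the control lung in the B16-bearing and LLC-bearing lung, and the small subunit 1.01 and 1.06 times. These sums weigh genes by signal. The large-subunit sums of 17474, 18030 and 16370 include Rpl41 (5122, 4736 and 3918) and Rpl37a (1229, 1168 and 812), 2 of its 9 genes. By count, 4 of these 9 were above control and 5 below in the B16-bearing lung. The sums are therefore no measure of a shift shared by the large-subunit genes.

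A further 38 probe sets list several symbols, at least 1 of which meets the rule; processed pseudogenes of ribosomal protein genes are common, and no gene is named from such probe sets. Of these, 28 had a mean signal of at least 200. In the B16-bearing lung 13 of the 28 were above and 15 below the control lung (median −0.0039), and in the LLC-bearing lung 22 were above and 6 below it (median 0.11). Between the tumour-bearing lungs 21 were lower and 7 higher in the B16-bearing lung (median −0.090). Over the bright members the same medians were −0.0081, 0.068 and −0.11. They come from the same 3 RNA samples and may bind the same messengers, so they check the probe sets and not the lungs.

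Probe sets of the same gene gave a second view of the precision. Of the 10 members with more than 1 probe set, 7 had a signal on at least 2. Their differences from control lay on the same side in 4 of 7 genes in the B16-bearing lung and in 4 of 7 in the LLC-bearing lung, and the median gap between the 2 was 0.20 and 0.32 on the log2 scale. For Rps28 both probe sets were bright. One read 2188, 2403 and 2402 and the other 2324, 2428 and 2148, so that the difference from control in the B16-bearing lung was −0.14 on one and 0.11 on the other. For Rpl10a they were −0.13 and −0.38 there, and for Rpl19 0.27 and 0.35. The 2 probe sets of Rpl19 lay further apart against control in the LLC-bearing lung, at −0.038 and −0.87. Between the tumour-bearing lungs they read 0.30 and 1.22, the dimmer one being 2.32-fold higher with B16. The second probe set of Rps29 read 67.4 in the control lung and under the floor in both others, at least 2.86-fold lower, while the one used had 143, 105 and 107. The probe sets of Rps29 thus disagree in the B16-bearing lung.

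Some members are known from inherited disease. Of 18 genes of a list for Diamond-Blackfan anaemia, an inherited failure of red cell production, 8 were members and 7 were measured: Rps19, Rps24, Rps7, Rps10, Rps28, Rps29 and Rps27. Rps19, the gene most often mutated in it, had signals of 1765, 1651 and 1583 (0.16 and 0.060 against control). The median of the 7 was 0.019 with B16 and 0.060 with LLC. Of other functional groups looked for, Rpl39 at the tunnel through which the new chain leaves was above the floor in the B16-bearing lung alone (25.0), and Rps3, at the entry of the messenger, had 1669, 1585 and 1512. Members were also grouped by whether the search at annotated starts found a pyrimidine run, which could end before the start. The medians were 0.032 with (8 measured) and −0.0100 without a match (12 measured) in the B16-bearing lung, and 0.12 (7) and 0.074 (12) in the LLC-bearing lung.

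Other genes of translation were set beside them. A list of elongation factors, to which Tpt1 was added, had 5 measured genes. Of these, 4 were above control in the B16-bearing lung (median 0.10) and 3 in the LLC-bearing lung (median 0.082). Eef2, which moves the ribosome along the messenger, had signals of 1690, 1456 and 1344, the highest value of the list in the B16-bearing lung (0.33). Tpt1, a translation-associated protein, had 4960, 4930 and 4294 and was highest in the LLC-bearing lung (0.20). Eef1d, a subunit of the exchange factor, was lowest in both, with 233, 216 and 262. None of these 5 reached 1.5-fold in any of the comparisons.

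Initiation factors and ribosome biogenesis genes lay on both sides of the control lung. The initiation-factor list took every symbol that starts with Eif, so it also holds regulators such as the kinase Eif2ak2. Of 38 of these genes measured in the B16-bearing lung 18 were above control (median −0.083), and of 37 in the LLC-bearing lung 15 (median −0.11). In the first, 2 were at least 1.5-fold higher and 5 lower, where the shares over all genes were 9.42% and 13.7%. In the second 0 were higher and 3 lower, where those shares were 9.32% and 9.07%. Eif5a had the highest value with B16, at 245 against signals under the floor on both other arrays, and Eif2ak2, the kinase PKR, the lowest, under the floor against 49.4. With LLC the lowest was Eif4e2, a cap-binding protein, with 128, 33.3 and 86.7, and the highest Eif2s2, an eIF2 subunit, at 53.1 against 38.7. Of 25 ribosome biogenesis genes 12 were above control in the B16-bearing lung (median −0.080), and of 24 in the LLC-bearing lung 9 (median −0.037). Nhp2, a protein of the particles that modify ribosomal RNA, had 53.0 and 60.4 against 119 in the control lung. Nop2, a methyltransferase of ribosomal RNA, had 56.6 and 67.7 against 37.4. Npm1, the nucleolar protein nucleophosmin, had 344 and 312 against 536 (−0.64 and −0.78) and was the lowest of the other messengers with a known pyrimidine tract in both lungs. That list had medians of 0.046 and 0.099, with 6 and 8 of 12 above control. Of the aminoacyl-tRNA synthetases, which charge tRNAs, 8 of 16 were above control in the B16-bearing and 5 of 16 in the LLC-bearing lung. Aars had the highest value with B16 (90.5 against 40.3) and Farsa the lowest (29.2 against 46.4), and with LLC these were Qars (148 against 113) and Rars (34.2 against 92.1).

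The mitochondrial ribosomal proteins, which are encoded by separate genes, were set beside them as well. Of 50 measured in the B16-bearing lung 36 were below and 14 above control (median −0.17), where 50.7% of all genes were below. Of 53 measured with LLC 28 were below and 25 above (median −0.020), where 50.1% of all genes were below. Between the tumour-bearing lungs 37 of 51 were lower in the B16-bearing lung (median −0.074), against 52.3% of all genes. With 1 array a group these differences from the background had no test. Mrpl13 had the lowest value in the B16-bearing lung (72.0 against 146) and Mrpl11 in the LLC-bearing lung (60.4 against 121). Mrps18a had the highest in both (473 and 366 against 210).

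**Figure D4:**
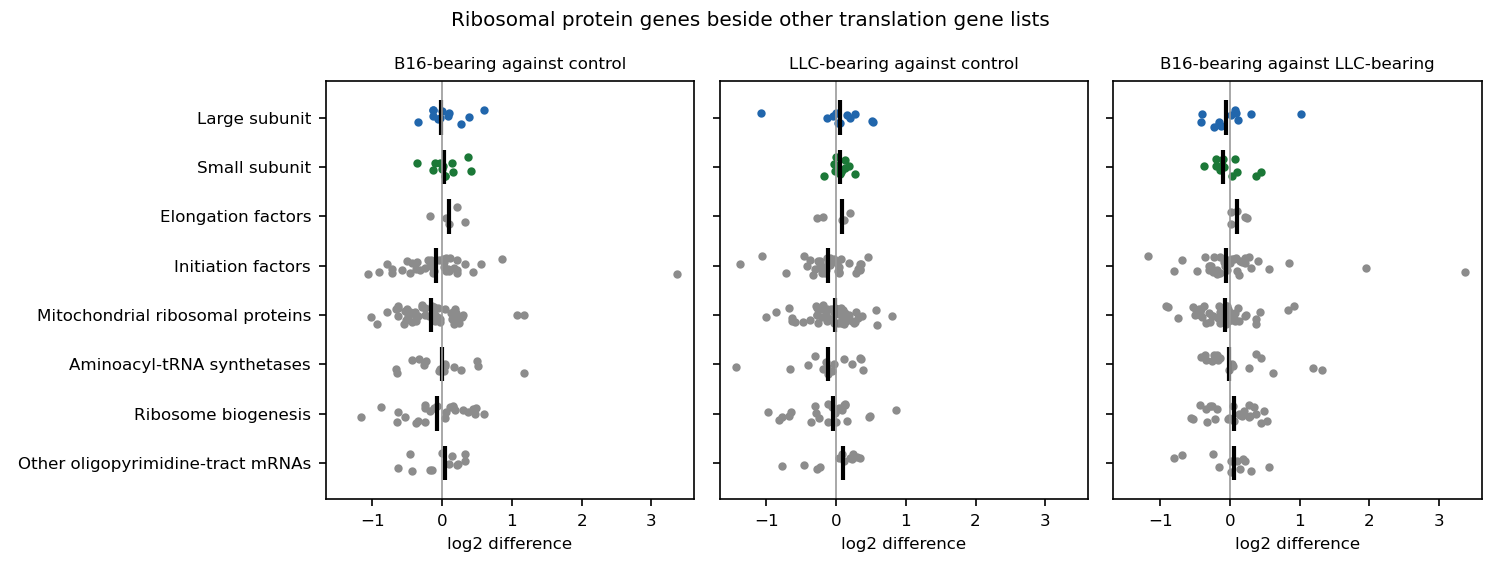
Log2 difference of each measured gene (points) in the ribosomal protein genes by subunit and in 6 other translation gene lists, for the 3 comparisons; black bars are medians. The medians of both subunits lie within 0.1 of 0 in each panel, and the mitochondrial ribosomal proteins have their median at −0.17 in the B16-bearing lung.

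Markers of other cell types were summed beside the members. Of the 7 lung markers on the array, Sftpc (7482, 7298 and 6206) and Scgb1a1 (5927, 6219 and 5424) were high on all 3 arrays. All 7 were above control with B16, while 4 were above and 3 below it with LLC. The lowest against control with LLC was Pecam1, at 313, 184 and 304. Summed signals of the 4 leukocyte markers on the array were 2289, 3410 and 2990. Lyz2 alone made up most of each sum, so the sums are no measure of a shift shared by the 4. By count, 1 of the 4 (Itgam) was above control and 3 were below it with B16. With LLC all 4 were above it. Ptprc, the antigen CD45, was furthest from control in both, at 25.0, 245 and 137. The 6 neutrophil markers summed to 2571, 3982 and 1062, including S100a8 (1224, 1810 and 485) and S100a9 (866, 1684 and 305). All 5 measured ones were above control in both tumour-bearing lungs. Between these lungs 4 were lower with B16 and 1, Camp, was higher (300, 225 and 171). The 7 B lymphocyte markers summed to 433, 454 and 856, with all 7 below control in both tumour-bearing lungs. The 9 muscle markers summed to 785, 739 and 1501, and all 7 measured ones were below control in both tumour-bearing lungs, with Myh6, a heart myosin, at 67.9, 30.5 and 233. Of 4 melanoma markers Dct was at 196 with LLC and under the floor on both other arrays. Pmel was lowest with LLC, at 78.6, 40.7 and 85.9. Tyr lay close to the floor (26.2, 30.0 and 20.9), and Tyrp1 was under it on all 3 arrays. The list summed to 152, 290.2 and 157, and these sums are no measure of a shift shared by the 4. Of 5 T lymphocyte markers Cd4 alone was above the floor, at 168, 109 and 124. The 9 proliferation markers summed to 840, 1008 and 925, with Mcm5 at 263, 411 and 330. Of the 7 measured, 4 were above control and 3 below with B16, and 3 above and 4 below with LLC. These sums are therefore no measure of a shift shared by the list. The 11 hepatocyte markers summed to 372, 4886 and 359, with Alb, serum albumin, at 1327 with LLC and under the floor on both other arrays. For beta-actin, the 3' control signal divided by the 5' one was 1.56, 1.47 and 1.44. For Gapdh it was 1.196, 1.001 and 0.957, highest on the B16-bearing array. The part of these differences in the values of the ribosomal protein genes was not tested.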

How the data were processed

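Lung RNA of 3 groups was measured on 1 Affymetrix array each; the groups come from the sample titles and, for the control, the source name. Biotin-labelled cRNA was made by the manufacturer's procedure, per the labels' protocols. The deposited values are linear intensity values per probe set, some below 0, so background had been subtracted; the sources used here do not give array software, summary method or scaling, although the trimmed mean (2% off each end) was 100.1 in every deposited column. The columns' medians were 41.8, 44.4 and 44.5. Arrays carry no read depth; their number limits the precision.

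Each array was multiplied by 1 factor (0.987, 1.01 and 1 for B16-bearing, LLC-bearing and control) that set the median log2 ratio to control to 0 over probe sets with a mean above the median. Values were set to at least 23.6, then log2 was taken. Of 12488 probe sets 66 controls were left out; 10833 have 1 symbol, 396 several and 1193 none, and the 33 members' symbols all matched a RefSeq gene table by gene ID. Python 3.11.15 and pandas 2.3.3 were used, and the steps were tested on simulated arrays. A member was named if it was among the 5 highest or 5 lowest of a comparison, differed at least 1.5-fold, had several probe sets or belonged to a role group; of the other translation lists, the highest and lowest gene. Further names were chosen after their values were seen. Members and lists were chosen with earlier results of these data known. Alternatives changed the scaling, floor, probe set choice and member rule.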

Additional observations from a re-analysis of the deposited data

How the results depend on the processing

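No paired analysis was possible because each group holds 1 array and no test was made. A median counted as moved when it shifted by 0.1 or more on the log2 scale, and a count when it changed by over 1.5 times; 164 values of the main results under the alternatives did neither and 34 moved. With factors from bright probe sets without the members, the B16-bearing median against control was −0.11 with 8 members higher and 0 at least 1.5-fold different; in the LLC-bearing lung 9 were higher and 14 lower, and between the tumour-bearing lungs 0 were 2-fold different. Quantile normalization gave 0 members at least 1.5-fold different in the B16-bearing lung, and 8 higher and 15 lower in the LLC-bearing lung. Without a floor, 4 and 3 members were at least 1.5-fold and 1 and 2 at least 2-fold different from control in the B16-bearing and LLC-bearing lung, 2 were at least 1.5-fold different between them, and the large minus small subunit median in the LLC-bearing lung was 0.11. A floor of 100 left 0 at least 1.5-fold or 2-fold different in the LLC-bearing lung or between the tumour-bearing lungs. Averaging all probe sets of a gene gave 2 at least 1.5-fold different in each of these comparisons. Settings chosen after seeing the data kept only bright members or took the probe sets with several symbols in their place. Bright members alone gave 4 lower in the LLC-bearing lung and 7 higher between the tumour-bearing lungs. The probe sets with several symbols gave 7 higher and 21 lower between them, with a large minus small subunit median of −0.092. Both settings gave 0 at least 1.5-fold or 2-fold different in the LLC-bearing lung and between the tumour-bearing lungs. The cause of each change was not tested, apart from the fewer genes measured under a higher floor or among bright members. Shares over all genes were not counted under these settings. The counts therefore show how the calls depend on the processing and are no result about the members.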

Other observations

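A pair of symbols lay just outside the rule because a digit follows their last letter. Rps3a1, of the small subunit, had signals of 2464, 2785 and 2522 (B16-bearing, LLC-bearing, control). Rpl7l1, a paralog, had 29.9, 25.9 and 23.9, close to the floor. Fau, whose product is cut into a ubiquitin-like part and a small-subunit protein, was under the floor on all 3 arrays. Across the 19 bright members, which share the arrays and their scaling and are not independent replicates, the log2 difference had a correlation with the log2 of the mean signal of 0.37 with B16 and 0.29 with LLC (Pearson's r). Over 1294 and 1296 other genes in the same range of signal it was 0.081 and 0.024.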
